A study of Mus musculus with 4 samples.

Results

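The genes described here are 46 members of the BMP and TGF-beta signalling system, out of 52636 genes counted in RNA from sorted mouse kidney cells. They were listed by name, as 12 ligands, 11 receptors, 6 extracellular modulators, 6 receptor-regulated or common Smads, 4 intracellular inhibitors and 7 target genes, and all 46 were matched to a gene identifier by their symbol. The study compared cells labelled control with cells labelled Brg1-cKO, where cKO commonly stands for a knockout limited to some cells or times. Smarca4 encodes Brg1, an ATPase that drives SWI/SNF chromatin remodeling. Each group had 2 libraries made from 3000 kidney cells per sample that had been purified by flow sorting. The strain, the age, the deleting Cre, the floxed allele, the genotype of the control animals and the marker used for sorting are not given in the sources used here, and nor is it stated that replicates were different animals. The p-values below thus reflect only how far these libraries scatter, and that scatter may be technical.

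Ligands of this family are secreted dimers that bring type II and type I receptor kinases together at the cell surface. TGF-beta and activin receptors phosphorylate Smad2 and Smad3, BMP receptors phosphorylate Smad1, Smad5 and Smad9, and both kinds of Smad enter the nucleus with Smad4 to switch genes such as the Id family. In the developing kidney Bmp7 keeps nephron progenitors alive and prepares them to differentiate, and Bmp4 from the mesenchyme restrains branching of the ureteric bud until Grem1 relieves it locally. TGF-beta itself is best known in this organ for its action on stroma, vessels and matrix.

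Gene counts totalled 35411905 and 37999342 for the controls, against 14645665 and 10922272 for Brg1-cKO. Replicates of Brg1-cKO varied far more than controls, with a biological coefficient of variation of 1.11 against 0.173. Over all genes the precision of differences was thus set mainly by the Brg1-cKO pair. For some genes the control pair lay farther apart, as for Bmp3, at a ratio of 1.36 against 1.13 in Brg1-cKO. Smarca4, which checks the labels, was at 894 and 933 CPM (counts scaled to a common library size) in control and at 757 and 688 CPM in Brg1-cKO, counted over all its exons and not only a deleted part. The RNA of Xist and of the Y-linked Ddx3y also separated the groups. Xist was at 832 and 1200 CPM against 243 and 216 CPM in control, and Ddx3y was at 1.04 and 3.25 CPM against 75.6 and 78.4 CPM. Sex and genotype thus cannot be told apart here. CPM values are counts per 1000000, with library sizes scaled by the trimmed mean of M-values (TMM), and they compare 1 gene between libraries. Levels of different genes are compared as CPM per kilobase of annotated exon.

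The comparison of Brg1-cKO with control asked how this signalling system differed where Brg1 was targeted. Among genes at 10 CPM or more in either group, the largest differences pointed opposite ways within the TGF-beta branch. Tgfbr3, the co-receptor betaglycan, stood 3.67-fold higher in Brg1-cKO, while Tgfb1, a TGF-beta ligand, stood 6.34-fold lower and Tgfbr2, the type II TGF-beta receptor, 2.42-fold lower. The BMP ligand genes Bmp3 and Bmp4 stood higher, and the matrix gene Tgfbi, induced by TGF-beta, stood lower. Bmp7, Id1, Smad5 and Smad7 overlapped between the groups.

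All 46 genes passed the filter on low counts. With edgeR's quasi-likelihood test 0 of them passed an adjusted p of 0.05, as did 0% of the 18172 genes tested. At an unadjusted p under 0.05, 2 were higher (Tgfbr3 and Bmp3), where 5.44% of all tested genes were higher. Another 7 were lower (Tgfb1, Tgfbi, Msx2, Bmp1, Tgfbr2, Smad3 and Fstl1), where 12.9% of all tested genes were lower. DESeq2 called 7 of the 45 genes to which it gave an adjusted p, against 11.1% of all genes it tested. It called Tgfbr3 and Bmp3 as higher and Tgfb1, Tgfbi, Bmp1, Tgfbr2 and Smad3 as lower. The limma-voom test called 1, Tgfbr3, against 1.8% of all genes. With 1 control left out, the 9 genes with an unadjusted p under 0.05 fell to 2 without replicate 1 (Tgfbr3 and Tgfbi) and to 1 without replicate 2 (Tgfbr3). In 12 of the 46 both Brg1-cKO libraries lay above both controls, where 17.5% of all tested genes did so. In 20 both lay below, where 34.5% did so, and in the other 14 the groups overlapped. The median log2 fold change over the 46 genes was -0.14, and over all genes tested it was -0.06.

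**Figure D1:**
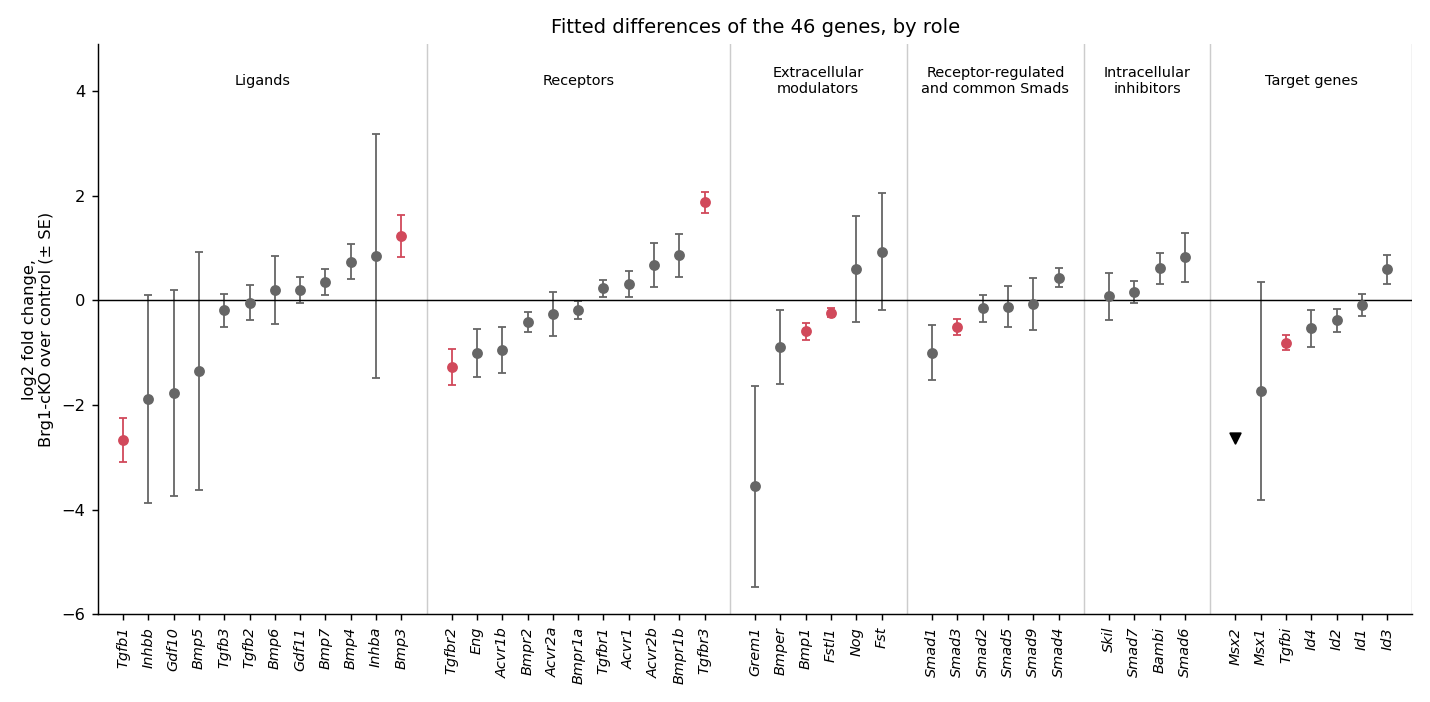
Fitted log2 fold change of Brg1-cKO over control (y axis) for each of the 46 genes (x axis), grouped by role, with bars of 1 standard error from edgeR. Red points have an unadjusted p under 0.05, and the black triangle marks the bound for Msx2, which had 0 counts in both Brg1-cKO libraries. Tgfbr3 lies highest at 1.87, and Tgfb1, at -2.66, lies lowest among genes at 10 CPM or more.

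Abundance shaped these counts. Of the 46 genes, 37 had a mean of 10 CPM or more in at least 1 group. Among those 37, both Brg1-cKO libraries lay above both controls in 12 and below in 14, and the median log2 fold change was -0.09. Over all 11222 tested genes at that level, both lay above in 23.7% and below in 26.2%, and the median was 0.06. The other 9 genes were Bmp5, Gdf10, Inhba, Inhbb, Fst, Nog, Grem1, Msx1 and Msx2. In control each had a mean between 0.738 and 4.48 CPM, and 7 of them had 0 counts in at least 1 Brg1-cKO library. So did 4617 of the 18172 genes tested, nearly all of them among the 6950 under 10 CPM in both groups. Of the 11222 genes at 10 CPM or more, 352 had such a 0. Genes with at least 1 count numbered 26486 and 27091 for control but 16300 and 18038 for Brg1-cKO.

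The TGF-beta ligands differed from each other. Tgfb1, which signals to stroma, immune cells and endothelium, was at 47.7 and 46.4 CPM in control and at 5.84 and 9.02 CPM in Brg1-cKO. Both Brg1-cKO values lay far below both controls, and the log2 fold change was -2.66 (SE 0.42), with an adjusted p of 0.166 in edgeR and an unadjusted p of 0.00305. Tgfb3 was at 36.3 and 35.2 CPM in control and at 34.1 and 28.5 CPM in Brg1-cKO, with both of the latter slightly lower. Tgfb2 was at 28.5 and 35.0 CPM in control and at 32.6 and 29.1 CPM in Brg1-cKO, and the groups overlapped. Per kilobase of exon, Tgfb3 stood at 1.13 times the level of Tgfb1 in each control, and at 8.69 and 4.70 times that level in Brg1-cKO. Tgfb1 lies on chromosome 7 from 25687002 to 25705077 (mm10), and no other gene of the annotation shares its exons.

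Among the 12 ligands Bmp7 was the most abundant per kilobase in control, at 38.6 CPM per kilobase, followed by Bmp4 at 21.1 and Gdf11 at 11.8. Bmp7, the survival factor of nephron progenitors, was at 157 and 153 CPM in control and at 157 and 238 CPM in Brg1-cKO. Only Brg1-cKO replicate 2 stood apart, and the log2 fold change was 0.35 (SE 0.25, edgeR adjusted p = 0.588). Bmp4, which acts on the ureteric bud and on stroma, was at 47.2 and 47.8 CPM in control and at 98.8 and 59.2 CPM in Brg1-cKO. Both Brg1-cKO libraries were higher, replicate 1 by more than replicate 2, with a log2 fold change of 0.73 (SE 0.33, adjusted p = 0.381 in edgeR). A predicted antisense gene, Gm15217, shares 89 of its 2248 exon bases.

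Bmp3, a ligand that counters other BMPs, was at 11.9 and 16.1 CPM in control and at 34.7 and 30.8 CPM in Brg1-cKO. The groups were clear of each other, and the log2 fold change was 1.23 (SE 0.41, edgeR adjusted p = 0.236, unadjusted p = 0.0381). Bmp6 stood at 10.7 and 10.1 CPM in control and at 11.9 CPM in both Brg1-cKO libraries, a log2 fold change of 0.19 (SE 0.64). Gdf11, which is needed for outgrowth of the ureteric bud, was at 45.04 and 51.0 CPM in control and at 59.2 and 51.0 CPM in Brg1-cKO, a log2 fold change of 0.20 (SE 0.25). Bmp3 thus showed the largest relative difference of the BMP ligands at 10 CPM or more, from a low level.

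The remaining ligands were scarce. Bmp5 had 144 and 127 counts in control and 41 and 0 in Brg1-cKO, and Gdf10 had 61 and 84 against 16 and 0. The activin subunit genes Inhba and Inhbb had 29 and 50, and 74 and 52 counts in control. In Brg1-cKO Inhba had 0 and 41 counts and Inhbb 0 and 10. A count of 0 allowed up to 3 counts, which is 0.205 CPM in Brg1-cKO replicate 1 and 0.275 CPM in replicate 2 before TMM scaling. Each of these 4 genes was at 0 in 1 Brg1-cKO library and detected in the other, and none had an unadjusted p under 0.05.

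**Figure D2:**
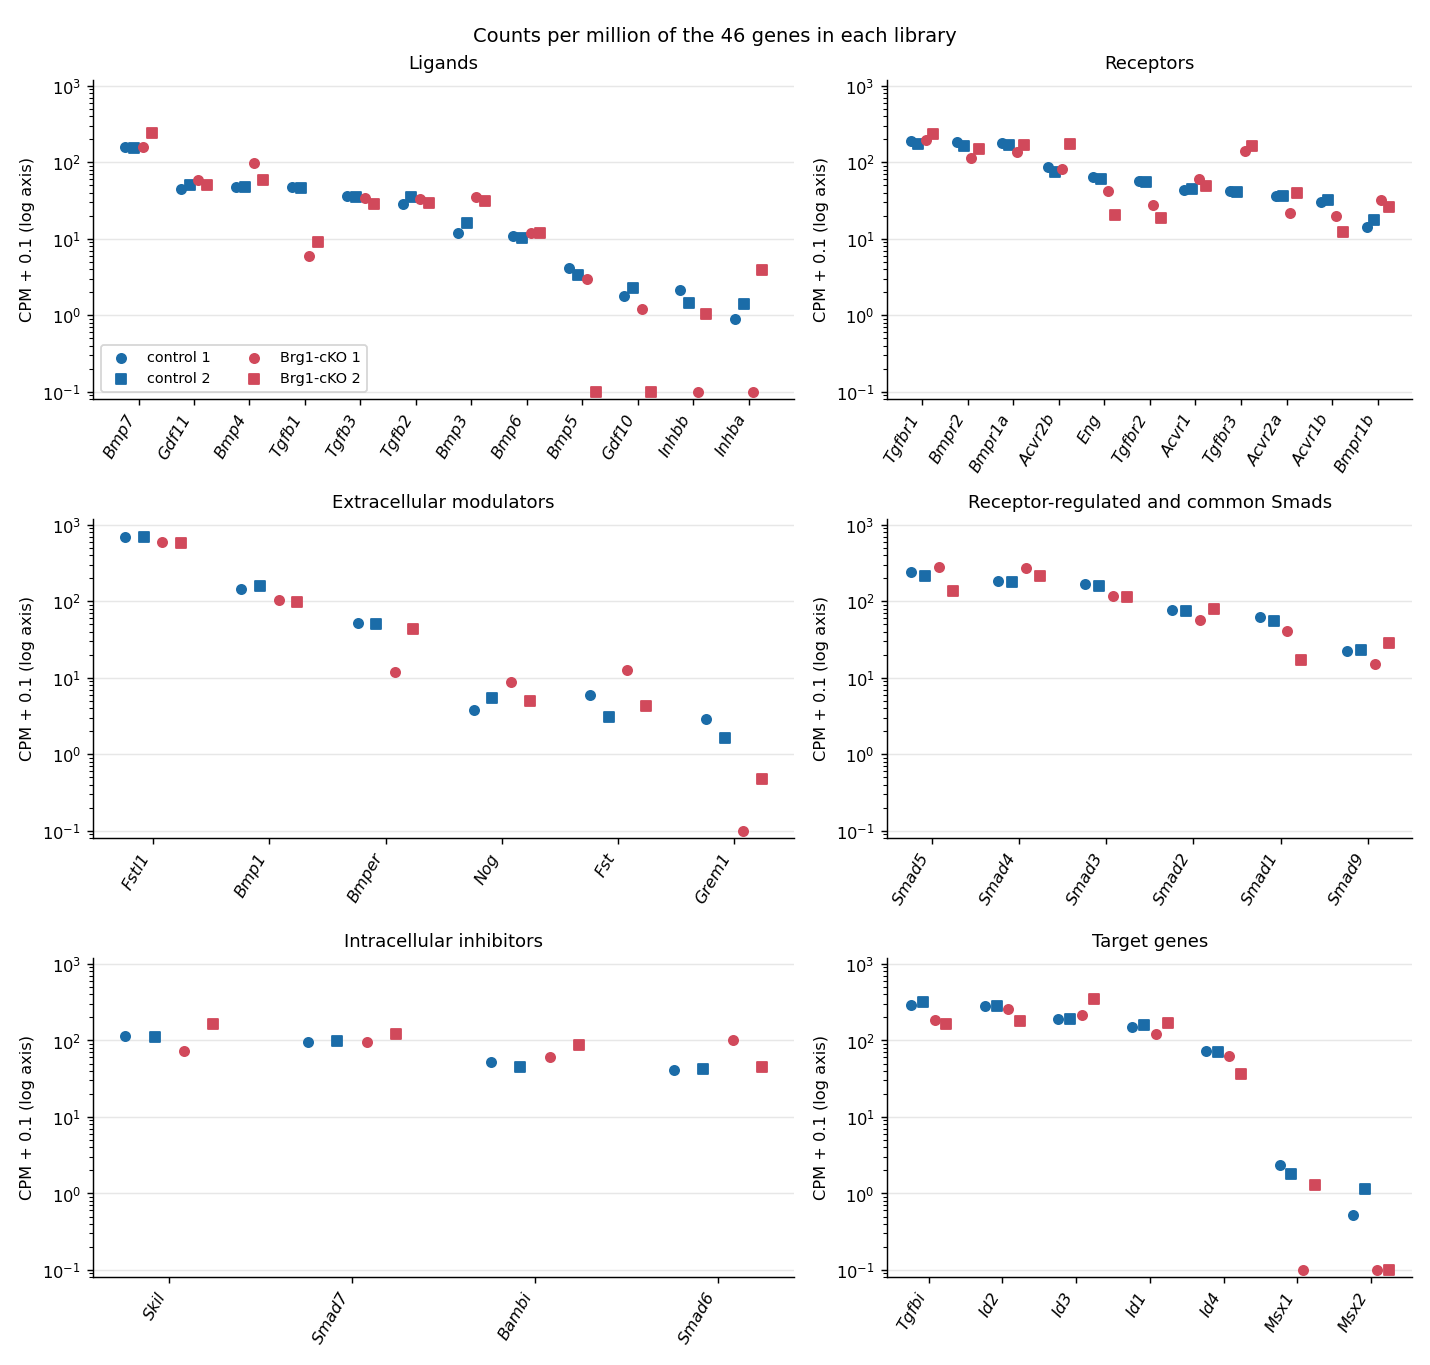
CPM plus 0.1 on a log axis (y axis) for each of the 46 genes (x axis), in 6 panels by role, with blue points for the controls and red points for the Brg1-cKO libraries (circles for replicate 1, squares for replicate 2). The controls nearly coincide for most genes, and the Brg1-cKO pair spreads more, as for Bmper at 11.8 and 44.1 CPM. Points at the bottom line of 0.1 are libraries with 0 counts.

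Receptors of the TGF-beta branch did not share a direction. Tgfbr3, the betaglycan co-receptor that binds TGF-beta and inhibin and presents ligand to other receptors, was at 42.1 and 40.3 CPM in control and at 138 and 164 CPM in Brg1-cKO. Both Brg1-cKO libraries stood more than 3 times above the controls, a log2 difference of 1.87 (SE 0.20), with an adjusted p of 0.166 and an unadjusted p of 0.000648 in edgeR. The adjusted p was 1.59e-16 with DESeq2 and 0.0495 with limma-voom. Tgfbr3 lies on chromosome 5 from 107106570 to 107289629, and a gene model on the same strand, Gm43422, shares 297 of its 6545 exon bases.

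Tgfbr2, the type II receptor that TGF-beta needs to signal, was at 57.0 and 54.7 CPM in control and at 27.8 and 18.3 CPM in Brg1-cKO. It was lower in both Brg1-cKO libraries, by a log2 fold change of -1.27 (SE 0.35, adjusted p = 0.172 in edgeR, unadjusted p = 0.0209). Tgfbr1, the type I partner, was at 188 and 176 CPM in control and at 193 and 233 CPM in Brg1-cKO, a log2 fold change of 0.23 (SE 0.16). The ratio of Tgfbr3 to Tgfbr2, per kilobase of exon within a library, was 0.924 and 0.923 in control and 6.22 and 11.2 in Brg1-cKO. This ratio and the others given here were chosen after the values were seen. Eng, the endoglin co-receptor of vessels, was at 64.6 and 60.8 CPM in control and at 42.4 and 20.1 CPM in Brg1-cKO, lower in both, with a log2 fold change of -1.003 (SE 0.45, adjusted p = 0.379 in edgeR).

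The activin type I receptor gene Acvr1b was at 30.3 and 31.6 CPM in control and at 20.03 and 11.996 CPM in Brg1-cKO, lower in both libraries (log2 fold change -0.95, SE 0.45). The type II receptor gene Acvr2b, which serves activins and Gdf11, was at 85.5 and 73.5 CPM in control and at 82.7 and 173 CPM in Brg1-cKO. It was high in Brg1-cKO replicate 2 alone. Acvr2a, its close relative, was at 36.5 and 36.6 CPM in control and at 21.6 and 39.2 CPM in Brg1-cKO, so replicate 1 alone was low. For both genes the difference between the Brg1-cKO libraries was at least as large as that between the group means.

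The BMP receptors held 1 gene with overlapping groups and 3 without. Bmpr1a, the type I receptor of most BMP signalling, was at 181 and 166 CPM in control and at 136 and 169 CPM in Brg1-cKO, and the groups overlapped. Bmpr1b, a second type I receptor, was at 14.3 and 17.5 CPM in control and at 31.6 and 26.1 CPM in Brg1-cKO, higher in both libraries (log2 fold change 0.86, SE 0.41, edgeR adjusted p = 0.396). Bmpr2, the type II receptor, was at 185 and 165 CPM in control and at 114 and 148 CPM in Brg1-cKO, lower in both (log2 fold change -0.42, SE 0.20). Acvr1, a type I receptor for Bmp7 and related ligands, was at 43.4 and 44.9 CPM against 59.97 and 49.6 CPM in Brg1-cKO. Per kilobase of exon Tgfbr1 and Bmpr1a led the receptors in control, at 27.8 and 27.3, and the 2 could not be separated given the spread between libraries. Tgfbr3 ranked 10 of 11 in control, at 6.30, and 4 of 11 in Brg1-cKO, at 23.1.

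Of the extracellular modulators, 4 of 6 lay lower in both Brg1-cKO libraries and the other 2, Fst and Nog, overlapped. Of all tested genes 34.5% lay below both controls in both Brg1-cKO libraries. Fstl1, a secreted follistatin-like protein and the most abundant of the 46 genes per kilobase in control, was at 703 and 688 CPM in control and at 599.9 and 583 CPM in Brg1-cKO. The difference was small and the groups did not overlap, with a log2 fold change of -0.23 (SE 0.08, adjusted p = 0.252 in edgeR, unadjusted p = 0.0429). Bmp1, which despite its name is a protease that cleaves procollagens and the BMP antagonist chordin, was at 147 and 158 CPM in control and at 104 and 98.6 CPM in Brg1-cKO. Its log2 fold change was -0.59 (SE 0.16, edgeR adjusted p = 0.167, unadjusted p = 0.0194).

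Bmper, a secreted BMP-binding protein made by endothelium among other cells, was at 52.4 and 50.9 CPM in control and at 11.8 and 44.1 CPM in Brg1-cKO. Replicate 1 was far below the controls and replicate 2 only slightly, a ratio of 3.73 between the Brg1-cKO libraries. Fst and Nog, which trap activins and BMPs, were at 5.90 and 2.94 CPM and at 3.67 and 5.29 CPM in control. In Brg1-cKO Fst was at 12.7 and 4.18 CPM and Nog at 8.70 and 4.93 CPM, so for each gene replicate 1 lay above both controls and replicate 2 between them. Grem1, the antagonist that frees the ureteric bud from Bmp4, had 100 and 60 counts in control and 0 and 4 in Brg1-cKO, lower in both, with a log2 fold change of -3.56 and an SE of 1.92.

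Among the signal-carrying Smads, Smad3 and Smad4 lay on opposite sides. Smad3, a transcription factor of the TGF-beta and activin branch, was at 170 and 157 CPM in control and at 117 and 113 CPM in Brg1-cKO. It was lower in both libraries (log2 fold change -0.51, SE 0.15, edgeR adjusted p = 0.195, unadjusted p = 0.0267). Smad4, the partner shared by both branches, was at 184 and 177 CPM in control and at 275 and 213 CPM in Brg1-cKO, higher in both (log2 fold change 0.43, SE 0.18, edgeR adjusted p = 0.328). The ratio of Smad4 to Smad3 per kilobase was 1.61 and 1.69 in the controls and 3.51 and 2.83 in Brg1-cKO. Smad2, the other Smad of the TGF-beta branch, was at 76.1 and 74.9 CPM in control and at 56.4 and 79.3 CPM in Brg1-cKO, and the groups overlapped.

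The BMP-branch Smads all had a log2 fold change below 0, but only Smad1 was lower in both Brg1-cKO libraries. Smad1 was at 61.5 and 54.8 CPM in control and at 41.3 and 16.8 CPM in Brg1-cKO, lower in both (log2 fold change -1.001, SE 0.52, edgeR adjusted p = 0.446). Smad5, at 242 and 217 CPM in control, was at 284 CPM in Brg1-cKO replicate 1 and at 137 CPM in replicate 2, on either side of the controls. Smad9 likewise straddled the control values of 22.2 and 23.3 CPM, at 15.1 and 28.1 CPM. Smad5, the most abundant of the 3 per kilobase in control, and Smad9 thus showed no group difference beyond the spread.

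All 4 intracellular inhibitors had a log2 fold change above 0, and 2 of them, Smad6 and Bambi, were above both controls in both Brg1-cKO libraries. Of all 18172 tested genes 8547 had a log2 fold change above 0 and 17.5% were above both controls, and none of the 4 inhibitors had an unadjusted p under 0.05. Smad6, an inhibitory Smad that BMP signals switch on and that blocks them in return, was at 40.6 and 42.3 CPM in control and at 102 and 45.1 CPM in Brg1-cKO. The difference came almost wholly from replicate 1 (log2 fold change 0.82, SE 0.47, edgeR adjusted p = 0.487). Bambi, a pseudoreceptor that lacks a kinase, was at 51.8 and 44.5 CPM in control and at 59.8 and 87.1 CPM in Brg1-cKO (log2 fold change 0.61, SE 0.29, edgeR adjusted p = 0.409). Smad7, which brings ubiquitin ligases to activated receptors, was at 96.3 and 98.9 CPM against 95.6 and 122 CPM. Skil, a nuclear corepressor of Smads, was at 113 and 112 CPM in control, and at 72.4 and 165 CPM in Brg1-cKO on either side of it.

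Of the target genes at 10 CPM or more, Tgfbi had the log2 fold change farthest from 0. It encodes a secreted matrix protein and is induced by TGF-beta. Tgfbi was at 289.5 and 319 CPM in control and at 185 and 162 CPM in Brg1-cKO. Both Brg1-cKO libraries lay well below both controls, a log2 fold change of -0.81 (SE 0.14), with an adjusted p of 0.166 and an unadjusted p of 0.00444 in edgeR. The homeobox genes Msx1 and Msx2, targets of BMP signals, were near the detection limit. Msx1 had 82 and 66 counts in control and 0 and 13 in Brg1-cKO. Msx2 had 15 and 41 counts in control and 0 in both Brg1-cKO libraries. Its control mean was 6.18 times a floor of 3 counts for the whole Brg1-cKO group. That bound covers counting error only and not the spread between libraries.

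The Id genes, which encode inhibitors of helix-loop-helix factors and respond to BMP signals, did not share a direction. Id3 was at 188 CPM in both controls and at 216 and 353 CPM in Brg1-cKO, higher in both, replicate 2 by far the more (log2 fold change 0.60, SE 0.28, edgeR adjusted p = 0.388). Id2 was at 284 and 282 CPM in control and at 256 and 178 CPM in Brg1-cKO, lower in both (log2 fold change -0.38, SE 0.22). Id4 was at 73.4 and 71.0 CPM in control and at 63.4 and 36.1 CPM in Brg1-cKO, also lower in both (log2 fold change -0.54, SE 0.36, edgeR adjusted p = 0.559). Id1 was at 151 and 158 CPM in control and at 123 and 168 CPM in Brg1-cKO, on either side. The 4 genes summed to 696 and 700.0 CPM in control and to 659 and 735 CPM in Brg1-cKO, so the sums overlapped. The ratio of Id3 to Id2 per kilobase was 0.902 and 0.908 in the controls and 1.15 and 2.71 in Brg1-cKO. For each Id gene the shift was larger in Brg1-cKO replicate 2 than in replicate 1, except for Id1, where replicate 1 lay farther from the controls.

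Promoter sequences are shown for Id2, Id4 and Tgfbi because these are the target genes with lower values in both Brg1-cKO libraries whose promoter window holds the letters GGCGCC, the GC-rich part of the BMP response element first described at Id1. The sequences are from RefSeq (GRCm38.p6), run 5′ to 3′ on the strand of the gene, and stop where an annotated exon begins. Capitals mark GGCGCC, which reads the same on both strands. The windows are chr12:25096254-25096342 on the minus strand for Id2 and chr13:48260866-48261115 on the plus strand for Id4. For Tgfbi the window is chr13:56609336-56609522 on the plus strand. The Id2 window lies inside the annotated span of Id2, from 25093799 to 25097140. It precedes the RefSeq start site but not the start of that longer gene model.
Id2: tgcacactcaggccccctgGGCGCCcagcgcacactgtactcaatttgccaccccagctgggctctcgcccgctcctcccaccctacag
Id4: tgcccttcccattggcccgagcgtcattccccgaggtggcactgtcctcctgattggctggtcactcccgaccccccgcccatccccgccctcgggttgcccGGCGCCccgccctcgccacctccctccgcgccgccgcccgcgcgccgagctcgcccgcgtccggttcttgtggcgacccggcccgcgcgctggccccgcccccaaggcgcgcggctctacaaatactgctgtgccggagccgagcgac
Tgfbi: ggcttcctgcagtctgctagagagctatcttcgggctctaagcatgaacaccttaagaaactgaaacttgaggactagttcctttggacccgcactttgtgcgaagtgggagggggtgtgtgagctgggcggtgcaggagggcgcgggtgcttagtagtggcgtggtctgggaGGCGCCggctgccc

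Counted from the RefSeq start site, the capitals begin at position -231 in Id2, -148 in Id4 and -77 in Tgfbi. RefSeq promoters were matched for 33 of the 46 genes, among them 6 of the 7 targets. The target without a matched promoter was Id1, so its promoter was not searched. In the 250 bases before the start site GGCGCC occurred in 9 of the 33, namely Bmpr1a, Bmpr2, Grem1, Id2, Id4, Smad5, Smad9, Tgfbi and Tgfbr1. It occurred in 9.59% of all 32851 promoters. The 33 are counted by gene and the 32851 by promoter entry, and G and C content was not matched for the 33. The 2 shares thus do not show an excess among the 33. All 6 target promoters were at least 60% G and C, and 3 of them held the letters, as did 26.1% of all promoters with that composition. Neither the Smad palindrome GTCTAGAC nor the full spacing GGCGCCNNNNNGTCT, searched on both strands, occurred in the window of any of the 33, and they occurred in 0.167% and 0.0700% of all promoters. A match is a description of the letters and no binding was measured.

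**Figure D3:**
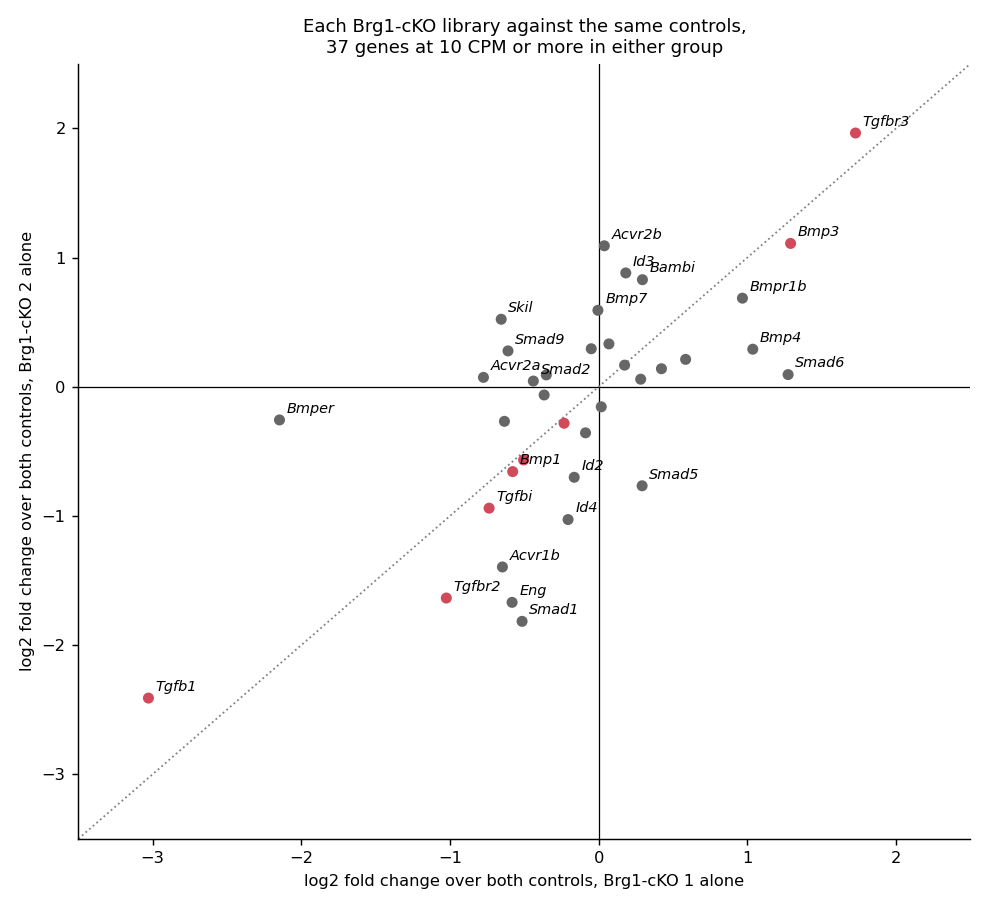
Log2 fold change over both controls fitted with Brg1-cKO replicate 1 alone (x axis) and with replicate 2 alone (y axis), 1 point for each of the 37 genes at 10 CPM or more in either group, red where the unadjusted p over all libraries was under 0.05. The dotted line marks equal values, and both axes share the controls. Tgfbr3 (1.73 and 1.96) and Bmp3 (1.29 and 1.11) lie near the line, Tgfb1 (-3.03 and -2.41) lies somewhat off it, and Bmper, Skil and Smad5 lie far from it.

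The Brg1-cKO libraries did not stand at the same distance from control for every gene. Against the same controls, Tgfbr3 had a log2 fold change of 1.73 with replicate 1 alone and 1.96 with replicate 2 alone, and Bmp3 had 1.29 and 1.11. Smad3 (-0.51 and -0.57), Bmp1 (-0.58 and -0.66), Tgfbi (-0.74 and -0.94) and Fstl1 (-0.23 and -0.28) were also close to equal. Tgfb1 was far below control with either library, at -3.03 and -2.41, and its Brg1-cKO libraries differed 1.54-fold. In contrast Smad5 had 0.29 with replicate 1 and -0.77 with replicate 2, and Skil had -0.66 and 0.52. Smad6 (1.27 and 0.09) and Bmper (-2.15 and -0.26) were far from control in replicate 1 only, and Smad1 (-0.52 and -1.82) and Eng (-0.58 and -1.67) mainly in replicate 2. Among the 37 genes at 10 CPM or more, 7 lay over 2-fold apart within the Brg1-cKO pair and 0 within the control pair. Over all tested genes of that level the shares were 38.8% and 1.93%.

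Marker genes of cell types that the sort could hold differed between the groups in the same libraries. The sum over 9 endothelial markers was 611 and 628 CPM in control and 361 and 315 CPM in Brg1-cKO. Of the 9, 8 were lower, 1 (Cldn5) was higher and none was at 0. Cldn5, which is part of that sum, was at 62.6 and 68.1 CPM in control and at 123 and 159 CPM in Brg1-cKO. The other 8 together thus fell by more than the sum. Endothelium expresses Eng, Tgfb1, Tgfbr2 and Bmper, which were lower in both Brg1-cKO libraries, and also Smad6 and Id3, which were higher in both. Bmper was at 11.8 and 44.1 CPM in Brg1-cKO, where the endothelial sum, Cldn5 included, was 361 and 315 CPM. The relation was not tested. The sum over 11 stromal markers was 3475 and 3450.1 CPM in control against 1884 and 1844 CPM, with 10 of 11 lower, and stromal cells express Tgfbi, Fstl1, Bmp1 and Grem1, which were lower, and Bmp4, which was higher. Immune markers, of cells that also make Tgfb1, summed to 114 and 116 CPM against 54.6 and 52.4 CPM, with 6 of 7 lower and C1qa at 0 in both Brg1-cKO libraries. Ureteric bud markers summed to 367 and 358 CPM against 247 and 211 CPM, with Calb1, Wnt9b and Wnt7b at 0 in both.

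**Figure D4:**
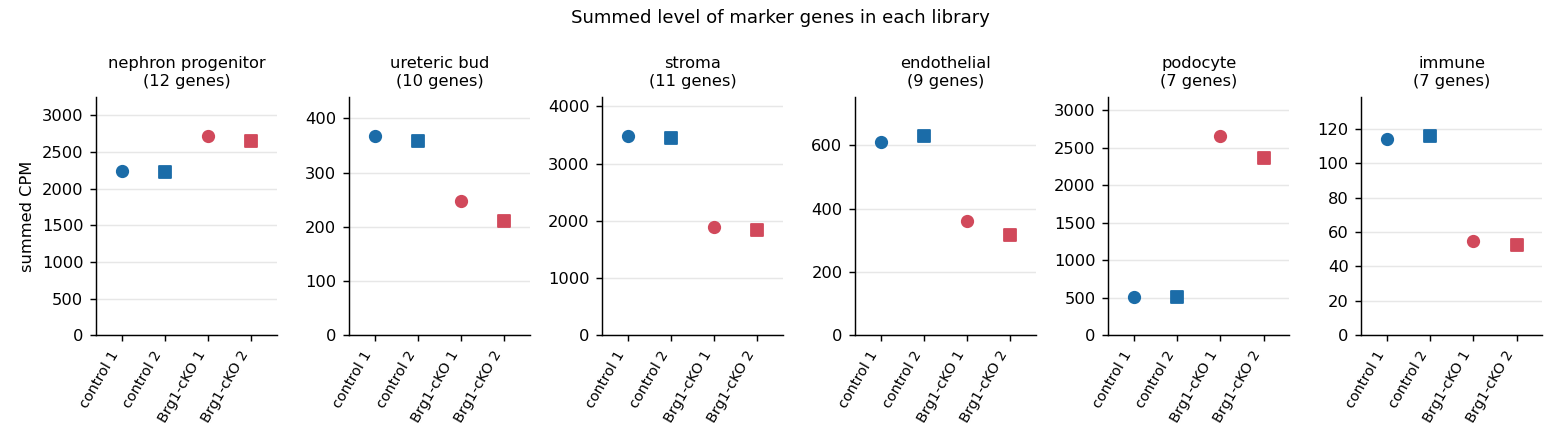
Summed CPM (y axis, from 0) of marker genes for 6 cell types in each of the 4 libraries (x axis), blue for control and red for Brg1-cKO. Podocyte markers sum to 2649 and 2354 CPM in Brg1-cKO and to 508 and 513 CPM in control, and stromal, endothelial, immune and ureteric bud markers are lower in both Brg1-cKO libraries.

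Podocyte markers summed to 508 and 513 CPM in control and to 2649 and 2354 CPM in Brg1-cKO, with 7 of 7 higher. Tgfbr3, at 42.1 and 40.3 CPM in control and 138 and 164 CPM in Brg1-cKO, was higher in the same libraries. The relation was not tested. Nephron progenitor markers were present in every library and summed to 2239.8 and 2225 CPM in control and to 2713 and 2644 CPM in Brg1-cKO. Of the 12, 8 had a log2 fold change above 0, but they did not move as a set. In both Brg1-cKO libraries 5 lay above both controls and 2, Six2 and Meox1, lay below. Wt1, a large part of the sum, was at 363 and 372 CPM in control and at 660 and 617 CPM in Brg1-cKO. Meox1 was at 38.5 and 33.2 CPM in control and at 28.7 and 6.14 CPM in Brg1-cKO. Six2, which defines those cells, was at 241 and 236 CPM in control and at 233 and 126 CPM in Brg1-cKO. Erythroid markers were at or near 0 in every library, with no globin gene above 0.0930 CPM and Alas2 highest at 0.651 CPM. Fewer cells of a type and less RNA per cell cannot be told apart in these bulk samples, and the part of the marker differences in the values of the 46 genes was not tested.

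Of 84 other genes of the pathway, 83 were matched and 62 were tested. None passed the adjusted threshold in edgeR, 4 passed in DESeq2 and none in limma-voom. At an unadjusted p under 0.05, 2 of the 62 were higher and 14 lower, where 5.44% and 12.9% of all tested genes were. Of the 14 lower, 10 were scarce genes without a count in either Brg1-cKO library, among them Fstl3 and Gdf5, and 8.40% of all tested genes were at 0 in both. The median log2 fold change over the 62 was -0.39, and it was -0.14 over the 42 of them at 10 CPM or more in either group.

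The other pathway genes at that level with an unadjusted p under 0.05 were 6. Ltbp1, a latent TGF-beta binding protein that stores the ligand in matrix, was at 319.95 and 329 CPM in control and at 424 and 454 CPM in Brg1-cKO (log2 fold change 0.44, SE 0.10, edgeR adjusted p = 0.166). Ltbp3, a relative, was at 84.4 and 87.4 CPM in control and at 58.0 and 48.6 CPM in Brg1-cKO (-0.69, SE 0.22). The latent binding proteins thus differed in direction. Chrdl2, a chordin-like BMP antagonist, was at 1.53 and 1.26 CPM in control and at 37.3 and 10.97 CPM in Brg1-cKO (log2 fold change 4.11, SE 0.96, edgeR adjusted p = 0.166). It was high in both Brg1-cKO libraries at unequal levels.

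Rgmb, a BMP co-receptor of the repulsive guidance family, was at 27.1 and 27.8 CPM in control and at 3.69 and 6.32 CPM in Brg1-cKO, lower in both (log2 fold change -2.45, SE 0.59, edgeR adjusted p = 0.166). Kcp, a kidney chordin-like protein that enhances BMP signalling, was at 68.0 and 76.2 CPM in control and at 44.0 and 44.5 CPM in Brg1-cKO (-0.70, SE 0.23). Thbs1, which releases TGF-beta from its latent form, was at 123 and 118 CPM in control and at 54.9 and 83.9 CPM in Brg1-cKO (-0.80, SE 0.28). Each of these 3 genes lay below both controls in both Brg1-cKO libraries.

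The 46 genes lie on 16 chromosomes. Tgfbi (chromosome 13, 56609523 to 56639562) and Smad5 (56703010 to 56742377) are neighbours, with 63447 bases and no other counted protein-coding gene between them, and Tgfbi was lower in both Brg1-cKO libraries while Smad5 straddled the controls. Smad3 (chromosome 9, 63646767 to 63757994) and Smad6 (63953076 to 64022059) are also adjacent among counted protein-coding genes, 195081 bases apart, and lay on opposite sides of control. Bmp3 lies on chromosome 5 from 98854415 to 98884396 and Tgfbr2 on chromosome 9 from 116084293 to 116175360. Exon bases are shared with another gene in 12 of the 46, with an antisense gene in 10 of them and with a gene on the same strand in Smad5 and Tgfbr3. Whether the counting used strand was not given, so reads in these shared parts may have been left out or given to either gene. None of the other 8 genes with an unadjusted p under 0.05 shares exons with another gene of the annotation.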

How the data were processed

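RNA from sorted mouse kidney cells was measured in 4 libraries, 2 per group, with groups taken from the sample titles. Per the labels' protocols, mRNA was purified with beads from total RNA, and strand-specific, randomly primed libraries were sequenced as single-end reads of 75 bases. The deposited values are raw counts per gene, 1 table per library, ending in lines for reads that no gene received. Such reads made up 31.8% to 32.4% of reads in control and 65.5% to 72.1% in Brg1-cKO and were left out. Per the submitters' processing notes, mm10, TopHat and DESeq2 were used. How reads were counted (tool, strand, annotation) is not given in the sources used here. Intervals and floors from counts cover counting error only.

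Counts were fitted across all genes with edgeR 4.0.16 in R 4.3.3 (TMM, default filter with a minimum count of 10, robust quasi-likelihood F test, group as the only term), with Benjamini-Hochberg adjustment over all 18172 genes. Functions were tested first on simulated data that had the spread of the controls in both groups. That test thus did not cover the wider spread of the Brg1-cKO pair. Standard errors are the log2 fold change over the root of F. Symbols, exon lengths and positions came from GENCODE M21, on the same build. Alternatives were DESeq2 1.42.0, limma-voom (limma 3.58.1), other scalings and filters, a replicate block and each library left out. The genes and lists were chosen with earlier results of these data known. Values per library are printed for genes at 10 CPM or more in either group or with an unadjusted p under 0.05. Other pathway genes are named where both hold, and examples beyond that were chosen after their values were seen.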

Additional observations from a re-analysis of the deposited data

Results flagged for a closer look

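Uniquely aligned reads outside every counted feature entered no comparison above. They were 53.4% ± 5.47 (SD, n = 2) of all uniquely aligned reads for Brg1-cKO and 15.9% ± 0.775 (SD, n = 2) for control, a difference between the groups in data outside the main measurement. Their part in the values of the BMP and TGF-beta genes was not tested.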

How the results depend on the processing

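Of the 46 genes, 35 kept the direction of their log2 fold change under all 12 alternatives that tested them. No gene passed the adjusted threshold under RLE factors, total counts, sizes that left out hemoglobin, ribosomal protein and mitochondrial genes, or either other filter. DESeq2 called 2038 genes, 7 of the 46 and 4 other pathway genes, and limma-voom called 327 and 1 of the 46. The replicate block called 156 genes and 1 of the 46 (Tgfbr3, adjusted p = 0.00311), and 8 other pathway genes had an unadjusted p under 0.05 in place of 16. Same-numbered libraries did not deviate together (r = -0.02 across genes), and the labels do not say that a number marks a shared animal or day. At 10 CPM in 2 libraries 6 other pathway genes had an unadjusted p under 0.05. Leaving out 1 library in turn gave 16 to 13262 called genes, 0 to 34 of the 46 and 0 to 53 other pathway genes. At an unadjusted p it gave 1 to 36 of the 46 and 0 to 56 other pathway genes. The high values came without a Brg1-cKO library, where the lone one was assumed to vary like the controls, with 28 of the 46 called when replicate 1 was dropped and 34 when replicate 2 was. Of the 46, 2 without control replicate 1 and 1 without control replicate 2 had an unadjusted p under 0.05, Tgfbr3 in both cases and Tgfbi in the first. The cause was not tested. The log2 fold change of Tgfb2 turned with DESeq2 (0.013) and RLE factors (0.0116). That of Inhba turned with limma-voom (-1.01) and the block (-1.53), and that of Skil with limma-voom (-0.12) and the block (-0.0422). With 1 library left out the range was -0.22 to 0.0824 for Tgfb2, -7.97 to 1.83 for Inhba (its lowest value against a library at 0), -0.66 to 0.52 for Skil, -0.0055 to 0.59 for Bmp7, -0.78 to 0.0721 for Acvr2a, -0.10 to 1.5005 for Fst, -0.44 to 0.0436 for Smad2, -0.77 to 0.29 for Smad5, -0.0504 to 0.29 for Smad7, -0.61 to 0.28 for Smad9 and -0.35 to 0.0912 for Id1. The median over all genes shifted by -0.25 with limma-voom, -0.25 with the block, and -0.19 and -0.29 without Brg1-cKO replicate 1 or 2.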
